A study of Mus musculus with 4 samples.

Results

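Hard keratins were followed in 4 RNA-sequencing libraries of epithelial cells from the tongue of C57BL/6 mice, 2 labelled as carrying a systemic knockout of Otub2 (Otub2 KO 3 and 4) and 2 labelled wild type (Control 1 and 2). The genes were chosen by symbol: Krt31, Krt32, Krt34, Krt35, Krt36, Krt81, Krt82, Krt84, Krt85 and Krt86. Of these 10 genes, 9 were found among the 54446 genes of the count table, and Krt85 was not analysed here. All 4 libraries came from cells grown in RPMI-1640 with 10% fetal bovine serum, and Otub2 encodes a deubiquitinase of the OTU family. The labels give neither the age of the mice nor the part of Otub2 that was deleted, nor do they tie the libraries to different mice or cultures. The p-values therefore measure the spread between these 4 libraries, and that spread may be technical.

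Keratins are the intermediate filament proteins of epithelia, and each filament pairs an acidic type I with a basic type II chain. Hard keratins carry cysteine-rich ends that are cross-linked with keratin-associated proteins, and they build hair, nail and the horny tips of the filiform papillae on the back of the tongue. Krt84 and Krt36 are the members best known from filiform papillae. Krt32 and Krt82 are known from the cuticle of human hair, Krt35 from its matrix and cuticle, and Krt31, Krt34, Krt81 and Krt86 from its cortex.

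Krt32 was the most abundant hard keratin of the control libraries and was far lower in both libraries labelled Otub2 KO. Krt84 and Krt82 were also below both controls in CPM, by smaller amounts, whereas Krt36 overlapped the controls. The other 5 measured genes had at most 14 counts in any library. The edgeR test across all genes called none of the members, as it called 0% of all genes lower and 0% higher.

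The libraries differ in ways that touch every value below. Gene counts ran from 11548186 to 22719550 per library. In Otub2 KO 3 the 10 most abundant genes held 40% of gene counts, against 8.12% in Otub2 KO 4 and 12% and 12.4% in the controls. The 13 salivary markers summed to 456900 CPM (counts scaled to library size by TMM) in Otub2 KO 3, or 6543139 of 22719550 gene counts. They summed to 30.6 CPM in Otub2 KO 4 and 9.74 to 11.6 CPM in the controls. With a TMM factor of 0.65, CPM values of Otub2 KO 3 exceed the matching share of raw counts. Mucl2 alone gave 381500 CPM of its salivary sum and Car6 53520 CPM, while 4 of the 13 markers had 0 counts there. The 10 cardiomyocyte markers had sums of 19350 and 32.6 CPM in Otub2 KO 3 and 4, against 60.5 and 60.2 CPM in Control 1 and 2, and all 12 epithelial markers were detected in every library. Otub2 itself had 272 and 495 counts in Otub2 KO 3 and 4 and 393 and 367 in the controls, or 19.0 and 24.0 CPM against 27.5 and 26.9 CPM (log2 fold change -0.34, edgeR adjusted p = 0.485), and a gene-level count does not check a deletion. The count columns of these 2 libraries are headed OE and not KO. The titles and the genotype labels were followed. In bulk RNA, fewer cells of a type and less RNA per cell cannot be told apart.

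The type I members lie in 1 cluster on chromosome 11 and the type II members in 1 cluster on chromosome 15. For the 4 members that carried enough counts to be tested, the 250 bases before the start site are shown, from RefSeq on GRCm38.p6, all on the minus strand and written 5′ to 3′. Such windows were found for 6 of the 10 genes, and these 4 were printed because their fold changes are compared below. Capitals mark 3 searched strings on either strand: TATAAA, the TATA box; CTTTGA, a core recognised by LEF and TCF factors; and TTTATG, which was picked after the windows had been read. No marked matches overlap. The windows are chr11:100088270-100088519 for Krt32, chr15:101532821-101533070 for Krt84, chr15:101550660-101550909 for Krt82 and chr11:100105627-100105876 for Krt36.
Krt32: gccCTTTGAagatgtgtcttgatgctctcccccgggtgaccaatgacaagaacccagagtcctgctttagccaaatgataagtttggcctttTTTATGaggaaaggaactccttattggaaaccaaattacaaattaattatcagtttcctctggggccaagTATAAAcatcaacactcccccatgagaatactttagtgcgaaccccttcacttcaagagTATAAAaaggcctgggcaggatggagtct
Krt84: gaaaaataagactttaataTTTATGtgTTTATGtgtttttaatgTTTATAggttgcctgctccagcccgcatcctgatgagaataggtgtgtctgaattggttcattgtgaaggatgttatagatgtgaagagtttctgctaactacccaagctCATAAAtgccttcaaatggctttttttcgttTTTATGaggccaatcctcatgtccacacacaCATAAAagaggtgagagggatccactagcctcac
Krt82: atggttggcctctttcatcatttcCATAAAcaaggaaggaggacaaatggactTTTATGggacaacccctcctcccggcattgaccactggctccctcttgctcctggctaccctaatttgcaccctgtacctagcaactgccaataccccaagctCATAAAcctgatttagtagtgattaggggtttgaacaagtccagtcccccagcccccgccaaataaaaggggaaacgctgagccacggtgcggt
Krt36: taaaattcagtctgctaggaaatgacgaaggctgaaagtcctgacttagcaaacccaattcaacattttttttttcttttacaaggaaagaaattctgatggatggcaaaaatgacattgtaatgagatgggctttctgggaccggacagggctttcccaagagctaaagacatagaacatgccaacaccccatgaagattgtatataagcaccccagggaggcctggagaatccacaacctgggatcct

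The string TTTATG stood in the windows of Krt31, Krt32, Krt34, Krt82 and Krt84, 5 of the 6 matched genes, and in 10.8% of 32851 mouse windows of this length. As TTTATG was picked after the windows had been read, its share among them was favoured by that choice. The 2 shares are given as a description only. On the strand printed TTTATG began 158 bases before the start in both Krt31 and Krt32 and 154 before it in Krt34. CTTTGA stood in Krt31, Krt32 and Krt34 and in 13.8% of all windows. TATAAA stood in Krt31, Krt32, Krt34 and Krt84 and in 12.4% of all windows. On the strand printed TATAAA began 29 bases before the start in Krt31, 88 and 29 in Krt32 and 31 in Krt34. In Krt84 its match was on the other strand, 206 to 201 bases before the start. The Krt36 window held none of the 3 strings. These matches describe the letters in the windows and are not shown to be binding sites.

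Krt32 had 28 and 32 counts in Otub2 KO 3 and 4, against 584 and 295 counts in Control 1 and 2. On the TMM scale these were 1.96 and 1.55 CPM in the libraries labelled Otub2 KO and 40.9 and 21.6 CPM in the controls. Both controls lay far above both other libraries, and the exact Poisson intervals of the knockout-labelled libraries ended at 2.83 and 2.19 CPM, below the lower bounds of 37.6 and 19.2 CPM of the controls. The controls themselves differed, Control 1 being higher, and their counting intervals did not overlap. The log2 fold change was -4.15 (SE 0.504, 95% interval -5.44 to -2.87, n = 2 libraries per group), a 17.8-fold lower level, and it did not pass the edgeR test (adjusted p = 0.166, unadjusted p = 0.000361). DESeq2 called Krt32 lower (adjusted p = 3.86e-10), where it called 1.62% of genes lower and 4.89% higher.

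Low genes as a class sat lower in the libraries labelled Otub2 KO. Krt32 had a mean of 16.5 CPM over the 4 libraries, through its level in the controls. In Otub2 KO 3 and 4 it stood at 1.96 and 1.55 CPM. Of genes with a mean of 1 to 2 CPM, 51.8% had both knockout-labelled libraries below both controls. Among the 6034 genes with a mean of 10 to 50 CPM, 8.63% had both knockout-labelled libraries below both controls and 47.2% had them above. Of the 6022 tested genes in this range, 3, Krt32 included, had a fold change as low as its own. The median there was 0.47 on the log2 scale. Krt32 falls in this range only through the controls, so its rank there is a description only. Set alone against the controls in edgeR, Otub2 KO 3 gave a log2 fold change of -4.00 for Krt32 (SE 0.388, adjusted p = 2.63e-23, with 12.7% of genes called lower), and Otub2 KO 4 gave -4.30 (SE 0.395, adjusted p = 6.41e-25, with 22% called lower). These single-library fits borrow their spread from the controls.

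**Figure D1:**
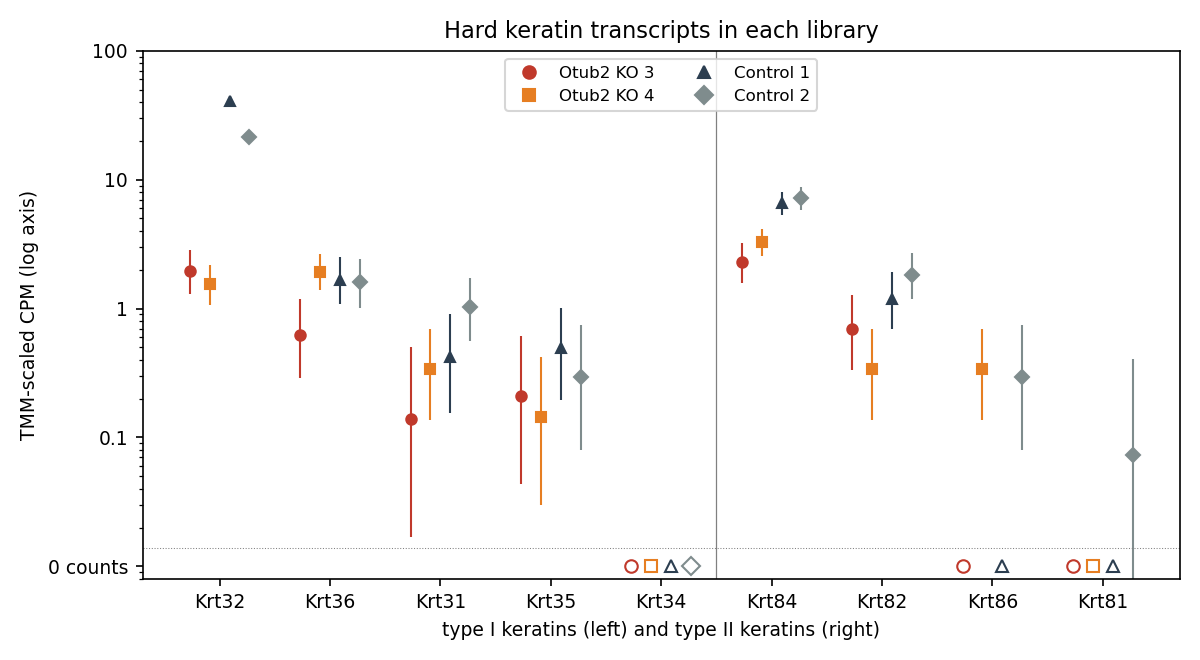
CPM (TMM-scaled, log axis) of the 9 measured hard keratins in Otub2 KO 3, Otub2 KO 4, Control 1 and Control 2, with exact 95% Poisson intervals; open symbols mark libraries with 0 counts. Krt32 stands at 1.96 and 1.55 CPM in Otub2 KO 3 and 4 and at 40.9 and 21.6 CPM in Control 1 and 2, while all other members stay below 10 CPM.

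Krt84, the type II keratin of filiform papillae, had 33 and 68 counts in Otub2 KO 3 and 4 and 94 and 98 counts in Control 1 and 2. These were 2.30 and 3.29 CPM in the libraries labelled Otub2 KO, against 6.58 and 7.18 CPM in the controls. The groups did not overlap, and the counting intervals of the 2 groups stayed apart (upper bounds of 3.24 and 4.17 CPM against lower bounds of 5.32 and 5.83 CPM). The log2 fold change was -1.29 (SE 0.466, 95% interval -2.48 to -0.11) and was not called (edgeR adjusted p = 0.189; DESeq2 adjusted p = 0.151). At a mean of 2 to 5 CPM 35.8% of genes had both libraries below both controls, so this position is a common one. Set alone against the controls, Otub2 KO 3 gave a log2 fold change of -1.58 for Krt84 (SE 0.382) and Otub2 KO 4 gave -1.03 (SE 0.344).

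Krt36, the type I keratin of the same papillae, was the tested member without a common direction. It had 9 and 40 counts in Otub2 KO 3 and 4 and 24 and 22 counts in the controls, or 0.629 and 1.94 CPM against 1.68 and 1.61 CPM. Otub2 KO 3 lay below both controls and Otub2 KO 4 above both, but within counting error. Their intervals of 0.287 to 1.19 CPM and 1.38 to 2.64 CPM overlapped those of Control 1 (1.08 to 2.50 CPM) and Control 2 (1.01 to 2.44 CPM). The log2 fold change was -0.33 (SE 0.64, 95% interval -1.96 to 1.29, edgeR adjusted p = 0.747), an interval that includes the fold change of Krt84. Against the controls alone, Otub2 KO 3 gave -1.38 (SE 0.591, edgeR adjusted p = 0.0546) and Otub2 KO 4 gave 0.26 (SE 0.403, edgeR adjusted p = 0.61). In Otub2 KO 3 both Krt84 and Krt36 lay below both controls, while in Otub2 KO 4 Krt84 lay below and Krt36 above, for Krt36 within counting error. The difference between the 2 genes was not tested.

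Krt82, the type II cuticle keratin, had 10 and 7 counts in Otub2 KO 3 and 4 and 17 and 25 counts in Control 1 and 2. The levels were 0.698 and 0.339 CPM in the libraries labelled Otub2 KO and 1.19 and 1.83 CPM in the controls. The groups did not overlap, but the interval of Otub2 KO 3 reached 1.28 CPM and so covered Control 1. The log2 fold change was -1.56 (SE 0.565, 95% interval -3.0 to -0.13, edgeR adjusted p = 0.189). DESeq2 gave Krt82 no adjusted p. At a mean of 1 to 2 CPM, the range that also holds Krt36, 51.8% of genes took this position and 9.58% the opposite one.

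**Figure D2:**
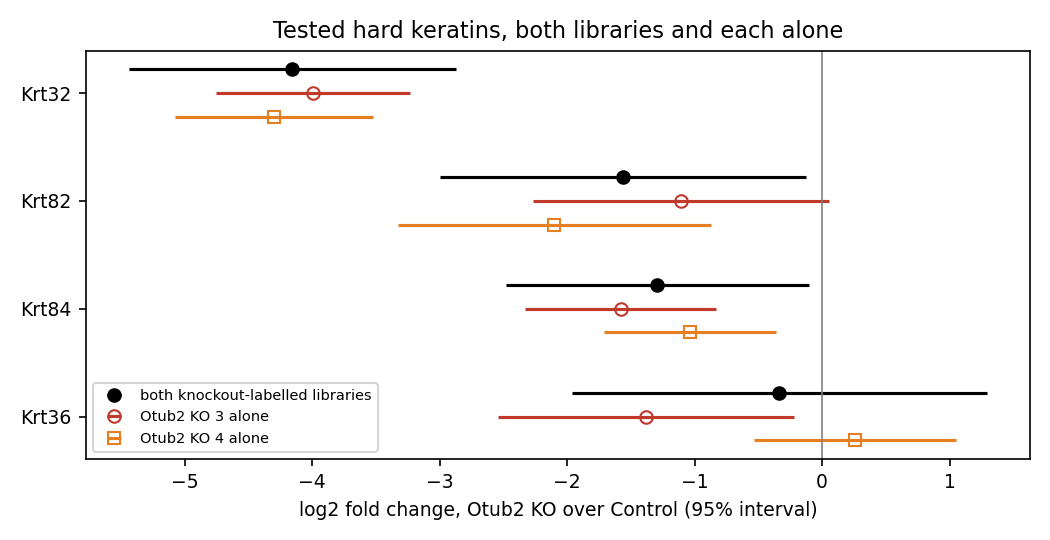
Log2 fold change (Otub2 KO over Control) with 95% intervals from edgeR for the 4 tested hard keratins, fitted with both libraries labelled Otub2 KO and with each alone. All 3 estimates of Krt32 lie between -4.30 and -4.00, whereas those of Krt36 fall on both sides of 0.

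The remaining 5 measured members were near the limit of detection and none passed the count filter. Krt31 had 2 and 7 counts in Otub2 KO 3 and 4 and 6 and 14 counts in Control 1 and 2. Krt35 had 3 and 3 counts in the libraries labelled Otub2 KO and 7 and 4 in the controls. Both genes lay below both controls in CPM, a position shared by 57.8% of genes with a mean of 0.2 to 0.5 CPM, and their counting intervals overlapped between groups. Krt86 had 0 and 7 counts in Otub2 KO 3 and 4 and 0 and 4 counts in Control 1 and 2, so that each group held 1 library with none. Krt81, the cortex keratin next to it, had 1 count in all, in Control 2. Krt34 had 0 counts in every library, which allows up to 0.209 and 0.145 CPM in Otub2 KO 3 and 4 and up to 0.21 and 0.22 CPM in Control 1 and 2 (3 counts per library, counting error only).

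Of the 8 members with at least 1 count, 5 had both knockout-labelled libraries below both controls and 0 had them above. Of the 47373 genes with at least 1 count, 35.7% lay below and 14.6% above, and in the ranges from 0.2 to 2 CPM 51.8% to 60.4% lay below. The share of 5 in 8 is near the background of genes as low as most members. The 4 tested members had a median log2 fold change of -1.43 against 0.09 over all 21916 genes tested, and a low gene can pass the count filter through the group where it is high, so this median is a description only. At an unadjusted p under 0.05 edgeR had Krt32, Krt82 and Krt84 lower, where it had 15.2% of all genes lower and 9.42% higher.

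The makeup of the hard keratin transcripts differed between the groups. FPKM is the authors' deposited value per length and depth, without TMM scaling. In FPKM the 9 genes summed to 1.80 and 4.24 in Otub2 KO 3 and 4 and to 32.2 and 20.8 in Control 1 and 2. Krt32 made up 39.3% and 23% of this sum in the libraries labelled Otub2 KO, against 84% and 69.5% in the controls. Krt84 made up 30.2% and 31.9% in Otub2 KO 3 and 4, against 8.81% and 15.1% in Control 1 and 2, while its own level was lower. In read counts, Krt32 held 28 of 85 and 32 of 164 hard keratin counts in Otub2 KO 3 and 4 (32.9%, exact 95% binomial interval 23.1% to 44%, and 19.5%, 13.8% to 26.4%). It held 584 of 732 and 295 of 463 in Control 1 and 2 (79.8%, 76.7% to 82.6%, and 63.7%, 59.2% to 68.1%). A share of this kind needs no scaling between libraries, and the groups did not overlap. As Krt32 held most of the control sum, its lower counts alone lower its share and raise those of other members. The shares are therefore not separate evidence.

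**Figure D3:**
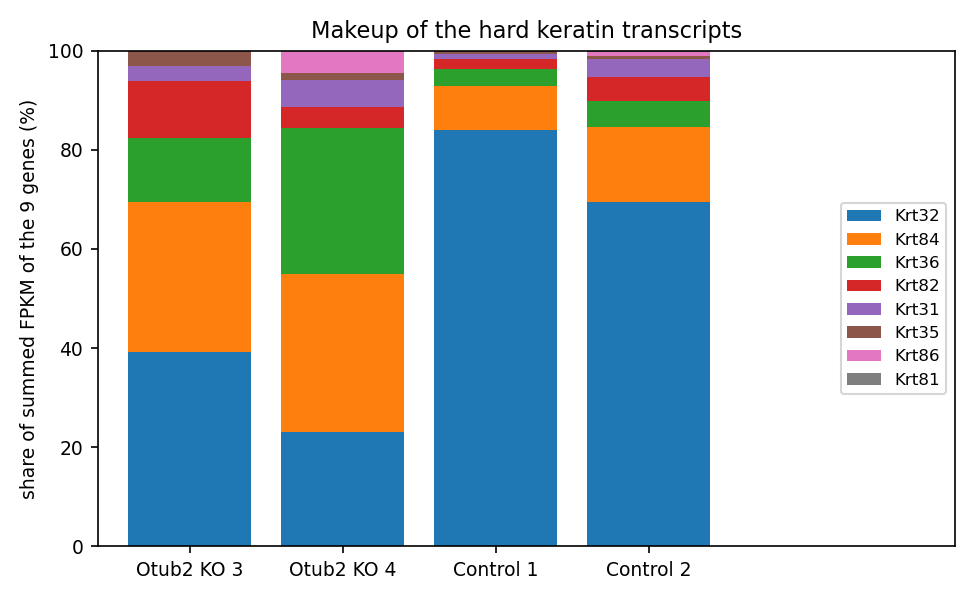
Share of the summed FPKM of the 9 measured hard keratins taken by each gene (Krt34 is 0), with 1 bar per library. Krt32 takes 39.3% and 23% in Otub2 KO 3 and 4 and 84% and 69.5% in Control 1 and 2.

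The order of levels per length also differed. In both controls Krt32 led with 27.1 and 14.4 FPKM, followed by Krt84 with 2.84 and 3.12 FPKM. In Otub2 KO 3 Krt32 stood at 0.707 FPKM and Krt84 at 0.543 FPKM, with overlapping counting error. In Otub2 KO 4 the order was Krt84 (1.35 FPKM), Krt36 (1.25 FPKM) and Krt32 (0.974 FPKM), and these neighbours were within counting error of each other too. Mean FPKM of Krt32 was 0.841 ± 0.189 in the libraries labelled Otub2 KO and 20.7 ± 8.93 in the controls (SD, n = 2 each). That of Krt84 was 0.946 ± 0.57 in the libraries labelled Otub2 KO and 2.98 ± 0.201 in the controls. As FPKM carry no TMM scaling, the fold differences of both genes are larger here than in CPM.

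Krt32 was lower relative to most other keratins of the same library. All these ratios share the Krt32 counts, so they restate its low level and are not separate evidence. Set against each of 18 soft keratins in turn, the ratio lay below both controls in both libraries labelled Otub2 KO for 17 and overlapped for 1, Krt10. Per 1000 counts of Krt84 it had 848 and 471 counts in Otub2 KO 3 and 4 and 6213 and 3010 counts in the controls. Per 1000 counts of Krt78, a type II keratin, it had 25.2 and 20.5 counts in the libraries labelled Otub2 KO and 327 and 171 counts in the controls. Per 1000 counts of Krt10, a type I keratin of suprabasal cells, it had 39.7 and 6.57 counts in Otub2 KO 3 and 4, against 48.6 and 11.4 counts in Control 1 and 2. Per 1000 counts of the 12 epithelial markers it had 0.0806 and 0.0425 counts in Otub2 KO 3 and 4, against 0.968 and 0.533 counts in Control 1 and 2. Krt84 had 0.095 and 0.0903 counts on that scale, against 0.156 and 0.177, and Krt36 had 0.0259 and 0.0531, against 0.0398 and 0.0397. Krt82 had 0.0288 and 0.00929 counts per 1000 epithelial marker counts in Otub2 KO 3 and 4, against 0.0282 and 0.0452 in Control 1 and 2, so that its groups overlapped. On this scale 2 of the 4 tested members, Krt32 and Krt84, lay below both controls, against 3 in TMM-scaled CPM. Of all genes tested, 18.5% lay below both controls when scaled to the epithelial markers and 33.1% in TMM-scaled CPM.

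The genes whose pattern over the 4 libraries was nearest to that of Krt32 were epithelial secreted or intracellular proteins and a transcription factor. By Euclidean distance of centred log2 CPM, and among 11266 candidates with a mean of at least 5 CPM, they were Slurp1 (distance 0.949), Sult1b1 (1.12), Spink12 (1.18), Serpinb3a (1.22) and Isl1 (1.44), where the median distance was 4.48. Slurp1 is a secreted Ly6 protein of keratinocytes, Sult1b1 a sulfotransferase, Spink12 a protease inhibitor of the Kazal family, Serpinb3a a clade B serpin and Isl1 a LIM homeobox factor. Sult1b1 was at 1.26 and 1.55 CPM in Otub2 KO 3 and 4 and at 13.9 and 15.3 CPM in Control 1 and 2, and Spink12 at 0.838 and 1.35 CPM against 11.5 and 12.2 CPM. Among the members, Krt82, Krt84 and Krt36 lay at distances of 2.85, 2.87 and 3.76 from Krt32, which among the candidates would rank 194, 201 and 1296. Distances over 4 libraries mostly reflect the split between groups and carry no test.

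**Figure D4:**
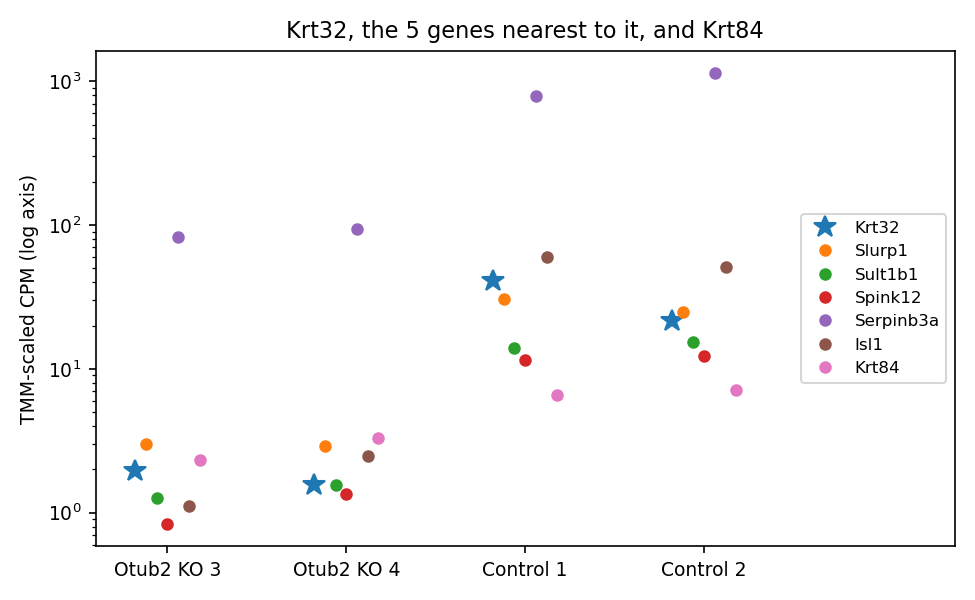
CPM (TMM-scaled, log axis) of Krt32, of the 5 genes with the nearest pattern and of Krt84 in the 4 libraries. The nearest genes are each lower in Otub2 KO 3 and 4 than in Control 1 and 2, and Krt84 shows the smaller difference of 2.30 and 3.29 against 6.58 and 7.18 CPM.

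The partner proteins of hard keratins were sparse. Of 58 keratin-associated protein genes, 53 had at least 1 count, and they summed to 4.05 and 3.82 CPM in Otub2 KO 3 and 4 and to 14.0 and 15.3 CPM in Control 1 and 2. In CPM 33 of the 53 lay below both controls and 1 above, where genes of 0.1 to 0.2 CPM, the range of their median, gave 49.8% and 4.08%. Only 4 passed the count filter (Krtap28-10, Krtap4-1, Krtap5-2 and Krtap5-3). They had at most 4 counts in a library labelled Otub2 KO and 10 to 19 in the controls. These genes passed the filter only through the controls, so their fold changes are a description only. Of 6 other hard keratin genes, Krt39 was the only tested member, with 0.349 and 0.871 CPM in Otub2 KO 3 and 4, against 0.98 and 1.61 CPM in Control 1 and 2 (log2 fold change -1.03, SE 0.604, edgeR adjusted p = 0.316). Krt33a, Krt33b, Krt40, Krt83 and Krt87 had at most 12 counts.

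Root sheath keratins, which mark another part of the hair follicle, were at similarly low levels. The 9 genes summed to 4.05 and 3.48 CPM in Otub2 KO 3 and 4 and to 6.44 and 7.18 CPM in Control 1 and 2. All 9 were detected, 5 lay below both controls and 0 above, where genes of 0.5 to 1 CPM, the range of their median, gave 60.4% below and 4.42% above. The 6 tested had log2 fold changes from -1.52 for Krt26 to 0.64, and edgeR called none.

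Other proteins of hard keratinising cells lay on both sides of the controls. Of 10 genes 8 were tested and none was called by edgeR. Padi3, a peptidylarginine deiminase of hair follicles, had 3.35 and 12.7 CPM in Otub2 KO 3 and 4, against 0.91 and 0.879 CPM in Control 1 and 2 (log2 fold change 3.16, SE 0.802, edgeR adjusted p = 0.166; DESeq2 adjusted p = 0.00676). Padi1, another peptidylarginine deiminase, had 0.908 and 6.00 CPM in Otub2 KO 3 and 4 and 0.28 and 1.10 CPM in Control 1 and 2, and the groups overlapped. Tgm3, a transglutaminase of cornifying and hair cells, had 565 and 621 CPM against 758 and 1147 CPM. Vsig8, a membrane protein of hair and nail, was at 59.0 and 105 CPM against 153 and 154 CPM. Padi3 lay above both controls, and Vsig8, Tgm3 and Krt32 below.

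Regulators known from hair keratin genes had smaller differences by their values than Krt32. All 11 genes of this list were tested and edgeR called none, with a median log2 fold change of 0.05. Hoxc13, named after its values were seen, is a homeobox factor needed for hair and filiform papillae in mice. It had 1.33 and 1.45 CPM in Otub2 KO 3 and 4 and 1.68 and 1.47 CPM in Control 1 and 2 (log2 fold change -0.18, SE 0.435, 95% interval -1.28 to 0.93, edgeR adjusted p = 0.806). Foxn1, a forkhead factor of hair and nail keratinisation, had 10.8 and 17.1 CPM against 22.4 and 27.1 CPM (-0.82, SE 0.378, edgeR adjusted p = 0.238). Lef1, a Wnt effector, had 3.77 and 2.03 CPM against 6.58 and 5.79 CPM (-1.09, SE 0.522, edgeR adjusted p = 0.25). Foxq1, a forkhead factor of hair, had 17.2 and 46.1 CPM in Otub2 KO 3 and 4 and 15.3 and 15.0 CPM in Control 1 and 2 (1.07, SE 0.525, edgeR adjusted p = 0.259). Dlx3, a homeobox factor of hair, had 9.29 and 21.97 CPM against 27.7 and 26.9 CPM (-0.80, SE 0.482, edgeR adjusted p = 0.326). In this list 5 genes lay below and 2 above both controls, where genes of 2 to 5 CPM, the range of the list's median, gave 35.8% below and 17.1% above.

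Soft keratins of the same epithelium spread over a wide range of fold changes, with Krt32 beyond its low end. Of 10 suprabasal genes 6 lay below both controls and 1 above, and edgeR called none. Genes over 50 CPM, the range of their median, gave 15.4% below and 40.4% above. Not all 10 genes lie in that range. Krt2, among the 6, had 1.12 and 0.629 CPM in Otub2 KO 3 and 4, against 2.24 and 2.27 CPM in Control 1 and 2. Genes of 1 to 2 CPM gave 51.8% below. Krt10 had 49.2 and 236 CPM in Otub2 KO 3 and 4, against 840 and 1894 CPM in Control 1 and 2 (log2 fold change -3.26, SE 0.889, edgeR adjusted p = 0.166), and Krt23 had 62.9 and 24.7 CPM against 2.66 and 5.64 CPM (3.40, SE 0.657, edgeR adjusted p = 0.166). Krt78 had 77.7 and 75.5 CPM in Otub2 KO 3 and 4, against 125 and 127 CPM (log2 fold change -0.72, SE 0.236, edgeR adjusted p = 0.178). Of 8 basal and stress keratins, whose median also lay over 50 CPM, 5 lay below and 1 above, with a median log2 fold change of -0.62. Krt32 had the lowest fold change of all keratins tested in these lists.

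**Figure D5:**
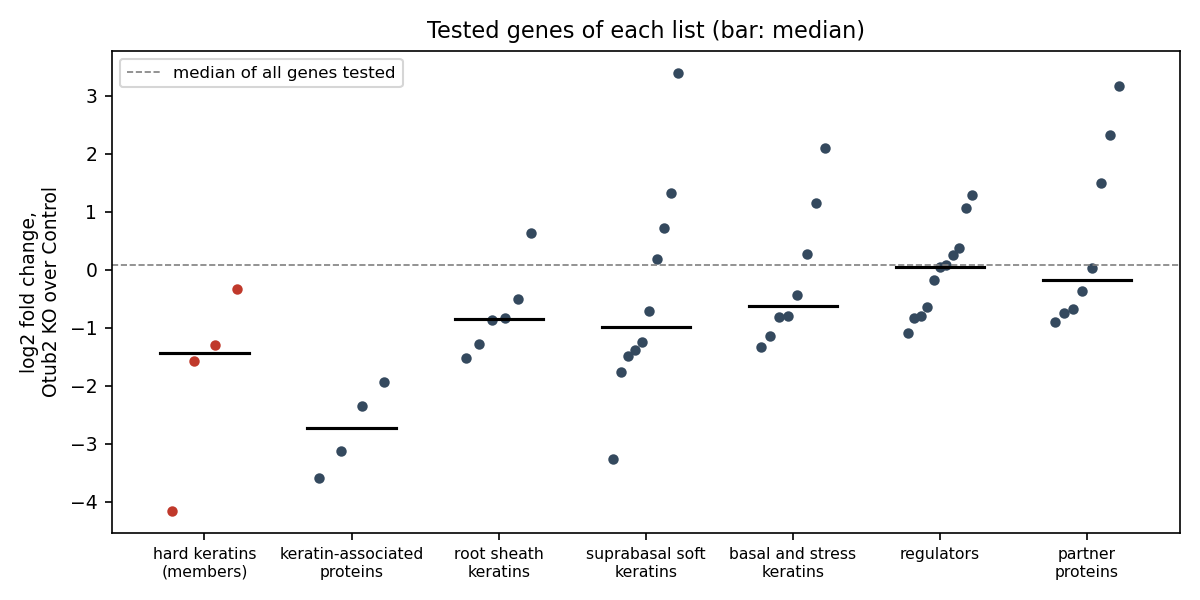
Log2 fold change (Otub2 KO over Control, edgeR) of the tested genes in 7 lists, with the median of each list as a bar and the median of all genes tested (0.09) as a dashed line. Krt32 is the lowest point at -4.15. Of the measured genes, 4 of 9 hard keratins and 4 of 58 keratin-associated proteins passed the count filter. A low gene can pass it through the group where it is high, so the medians of lists of low genes are a description only.

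The summed fibroblast markers lay above both controls in both libraries labelled Otub2 KO, while the leukocyte and taste cell sums overlapped the controls. Fibroblast markers, 11 genes, summed to 784 and 535 CPM in Otub2 KO 3 and 4 and to 188 and 229 CPM in Control 1 and 2, with 8 of 11 above both controls, where 47.2% of genes of 10 to 50 CPM took that position, and 0 genes at 0 in any library. The 9 leukocyte markers summed to 180 and 50.9 CPM against 152 and 89.9 CPM, and the 8 taste cell markers to 18.7 and 6.97 CPM against 13.2 and 13.7 CPM. The epithelial markers summed to 24260 and 36460 CPM in the libraries labelled Otub2 KO and to 42210 and 40540 CPM in the controls. Among the 13 salivary markers, both knockout-labelled libraries exceeded the controls for 4 and fell short of them for 1, where genes of 5 to 10 CPM, the range of their median, gave 33.1% above and 15.3% below. Otub2 KO 4, with 30.6 CPM of salivary markers against 9.74 to 11.6 in the controls, had 1.55 CPM of Krt32. The part of salivary, fibroblast and epithelial content in these results was not tested.

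Sequence sharing limits some of these counts. In GENCODE transcripts, 43.3% of the 50-base words of Krt86, 37.7% of Krt81, 33.1% of Krt34 and 28.1% of Krt31 also occur in another gene, mostly other hard keratins, so their counts are uncertain. For Krt84 and Krt82 this share was 0%, for Krt36 0.432% and for Krt35 2.74%. Krt32 (ENSMUSG00000046095, protein coding, chromosome 11, 100080848 to 100088226, minus strand, GRCm38) shared 6.46%, all with Gm11571, a predicted gene that overlaps it on the plus strand. Gm11571 had 4 and 4 counts in Otub2 KO 3 and 4 and 7 and 15 counts in Control 1 and 2, far fewer than Krt32 in each library. Krt84 (ENSMUSG00000044294) lies at 101525026 to 101532820 and Krt82 (ENSMUSG00000049548) at 101541214 to 101550667 on chromosome 15, and Krt36 (ENSMUSG00000020916) at 100102007 to 100105626 on chromosome 11, all protein coding and on the minus strand.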

How the data were processed

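RNA was measured by sequencing in 4 libraries, 2 per group. The authors deposited raw read counts per gene and matching FPKM values, per the file headers. HISAT2, DESeq and a human build, GRCh38, appear in the submitters' processing notes without version or role. Genes carry mouse Ensembl IDs, and 54409 of 54446 match GENCODE mouse release 21 (GRCm38), the source of coordinates. Lengths implied by the FPKM equal the summed exon lengths of that release for the 8 members with counts. How reads were counted (tool, strand, multi-mapping) is not given in the sources used here. The columns headed OE were assigned by their numbers. The number of unused per-sample columns was 0.

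A further 14785 features without a gene name, 0.914% to 2.84% of counts, were left out. Counts were tested with edgeR 4.0.16 in R 4.3.3 (quasi-likelihood F-test, TMM, filterByExpr, Benjamini-Hochberg adjustment at 0.05 over 21916 genes). DESeq2 1.42.0 and voom of limma 3.58.1 were alternatives, run on the same filtered genes. Standard errors come from the F statistic. Counting intervals are exact at 95% and cover counting error only, since reads are not independent molecules. All 10 members are named; in other lists up to 4 tested genes with the smallest p, besides Hoxc13 and untested genes given by counts. The members and lists were chosen with earlier results of these data known.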

Additional observations from a re-analysis of the deposited data

How the results depend on the processing

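No paired analysis was possible because the groups share no replicate number. Krt32, Krt82 and Krt84 kept a negative log2 fold change under all 12 alternatives, Krt32 between -4.63 and -3.61 with adjusted p from 6.41e-25 to 0.832. Scaling moved the median of all genes: 0.09 with TMM, 0.14 with DESeq2 size factors, -0.38 with upper-quartile scaling, -0.35 with library size only, 0.34 with unannotated features kept and 0.57 when scaled to epithelial markers, an alternative added after seeing the data. Relative to that median, Krt32 lay between -4.28 and -4.20 over these 6 scalings, Krt82 between -1.74 and -1.60, Krt84 between -1.42 and -1.32 and Krt36 between -0.56 and -0.28. A change of scaling shifts all genes by nearly the same amount. These narrow ranges therefore follow from subtracting the median and are not separate evidence.

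The median of the tested hard keratins was -1.89 with upper-quartile scaling, -1.88 with library size only and -0.94 when scaled to epithelial markers. On that last scale 2 tested members and 18.5% of all genes tested lay below both controls, against 3 and 33.1% with TMM. Krt36 ran from -1.38 without Otub2 KO 4 to 0.26 without Otub2 KO 3, and turned to 0.018 when scaled to epithelial markers; the cause was not tested. With library size only, 1 hard keratin was called lower (Krt32), with 1433 genes lower and 37 higher. DESeq2 called 1 hard keratin, with 258 genes lower and 780 higher. Without a filter on low counts, 3 genes were called lower and 6 higher, none of them hard keratins. Leaving out each library in turn gave 0 to 3 hard keratins called lower and 0 called higher, 0 to 5097 genes lower and 0 to 5243 higher, 3 to 4 members below and 0 to 1 above both controls, and a median of -1.58 to -1.19. The 3 were Krt32, Krt82 and Krt84 without Otub2 KO 3, against Krt32 and Krt84 without Otub2 KO 4; without either control none was called. In the fits that left out a library, 37% to 46.1% of all genes tested lay below the controls and 33.7% to 42.9% above. With at most 40 counts per library, Krt36 and Krt82 allow only wide intervals at this depth.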
